A study of Mus musculus with 16 samples.

Results

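The genes examined were those of the mitochondrial respiratory chain and ATP synthase, in lungs of mice with and without T1α (Pdpn), a membrane protein of alveolar type I cells. Members were the genes whose annotated symbol begins with Nduf, Uqcr, Cox4 to Cox8 or Atp5, or is Sdha, Sdhb, Sdhc or Sdhd. The rule found 71 genes among the 8251 genes that probe sets with 1 symbol name on the array, and 98 of 10833 such probe sets. Each gene was represented by its probe set of highest mean signal. No signal difference between groups entered the rule. The genes fell into 29 of complex I, 4 of complex II, 7 of complex III, 15 of complex IV, 14 of complex V and 2 assembly factors of complex I (Ndufaf1 and Ndufaf4).

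Whole lung RNA was hybridised to 16 Affymetrix U74Av2 arrays, 1 lung per array. The groups were T1α(+/+) lungs at E18.5 (replicates I to M, n = 5), T1α(-/-) lungs at E18.5 (A to E, n = 5), T1α(+/+) lungs at term (N to P, n = 3) and T1α(-/-) lungs at term (F to H, n = 3). All animals came from matings of heterozygous mice, and term animals were taken soon after a normal birth. T1α is lacking in every cell of the (-/-) animals, which form no expanded alveolar sacs and die at birth. The cells in which a genotype difference of whole lung arises cannot be told from these arrays. The sources used here give no strain, litter or sex for the single arrays. All values are MAS 5.0 signals, in arbitrary units on a linear scale, and the level of one probe set cannot be set against that of another. Differences are on the log2(signal + 16) scale.

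The respiratory chain sits in the inner mitochondrial membrane. Complex I takes electrons from NADH and complex II from succinate, complex III passes them from ubiquinol to cytochrome c, and complex IV hands them to oxygen. Complexes I, III and IV pump protons, and complex V (ATP synthase) lets the protons back to make ATP. All subunits measured here are coded in the nucleus, and heart and muscle, which burn much oxygen, hold the chain at high levels and use their own forms of some complex IV subunits. Fetal lung lives at low oxygen until the first breath.

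Promoters of such genes often hold sites for nuclear respiratory factor 1 (NRF1), GA-binding protein (GABP, of the ETS family) and YY1. RefSeq windows on GRCm38.p6, from 250 bases before to 50 after the start of a transcript, matched 58 of the 71 members. The letters GCGCANGCG (NRF1) stood on either strand in the windows of 15 of these 58 genes (25.9%, against 9.63% of 17491 protein-coding genes and 7.03% of all 27025 genes in the table). CCGGAAG (GABP and other ETS factors) stood in 16 (27.6%, against 12.9% and 9.93%), AAGATGGCG (YY1) in 5 (8.62%, against 2.14% and 1.64%) and TATAAA in 6 (10.3%, against 14.8% and 15.7%). The NRF1 letters can match at the same place on both strands, and no matches overlap in the windows shown. These are matches of letters, and no factor's binding was measured. Of the 6 members called lower at term in both genotypes, 3 hold the ETS letters, 0 the NRF1 or YY1 letters and 1 TATAAA, and Cox6b2, Ndufb8 and Ndufv1 hold none of the 4. The windows of 5 members called lower at term, chosen because they hold matches, are given 5′ to 3′ on the gene's strand, with the matched letters in capitals (CTTCCGG and TTTATA are CCGGAAG and TATAAA read on the other strand, as is the NRF1 match of Uqcr11). Atp5e (chr2:174464052-174464351, minus strand), Ndufb6 (chr4:40279372-40279671, minus strand) and Ndufb7 (chr8:83566508-83566807, plus strand) were called lower in both genotypes and hold the ETS letters, and Ndufb7 also holds TATAAA on the opposite strand, near the upstream end. Sdhd (chr9:50603800-50604099, minus strand) and Uqcr11 (chr10:80406772-80407071, minus strand) were called lower in (+/+) lungs and hold both the NRF1 and the ETS letters.
Atp5e: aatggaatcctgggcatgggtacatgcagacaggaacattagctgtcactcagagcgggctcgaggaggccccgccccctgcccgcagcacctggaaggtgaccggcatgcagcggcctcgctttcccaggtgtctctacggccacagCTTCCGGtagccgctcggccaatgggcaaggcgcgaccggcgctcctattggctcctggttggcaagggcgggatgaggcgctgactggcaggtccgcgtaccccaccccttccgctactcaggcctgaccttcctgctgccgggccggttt
Ndufb6: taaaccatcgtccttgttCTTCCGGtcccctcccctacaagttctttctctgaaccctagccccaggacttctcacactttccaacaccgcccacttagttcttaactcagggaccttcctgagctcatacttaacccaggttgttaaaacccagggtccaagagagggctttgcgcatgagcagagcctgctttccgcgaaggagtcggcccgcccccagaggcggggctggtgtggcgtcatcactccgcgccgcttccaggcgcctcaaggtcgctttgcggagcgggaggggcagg
Ndufb7: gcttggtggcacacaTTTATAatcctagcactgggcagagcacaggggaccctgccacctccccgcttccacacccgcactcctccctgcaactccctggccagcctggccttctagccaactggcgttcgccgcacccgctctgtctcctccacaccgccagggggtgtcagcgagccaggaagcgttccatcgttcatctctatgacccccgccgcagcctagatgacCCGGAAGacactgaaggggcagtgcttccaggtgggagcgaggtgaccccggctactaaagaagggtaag
Sdhd: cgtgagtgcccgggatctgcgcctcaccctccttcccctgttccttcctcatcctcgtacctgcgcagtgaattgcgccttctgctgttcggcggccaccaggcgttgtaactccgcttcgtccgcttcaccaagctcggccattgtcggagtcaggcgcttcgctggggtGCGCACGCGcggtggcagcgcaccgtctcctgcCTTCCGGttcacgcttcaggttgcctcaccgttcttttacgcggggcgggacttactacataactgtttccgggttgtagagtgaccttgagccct
Uqcr11: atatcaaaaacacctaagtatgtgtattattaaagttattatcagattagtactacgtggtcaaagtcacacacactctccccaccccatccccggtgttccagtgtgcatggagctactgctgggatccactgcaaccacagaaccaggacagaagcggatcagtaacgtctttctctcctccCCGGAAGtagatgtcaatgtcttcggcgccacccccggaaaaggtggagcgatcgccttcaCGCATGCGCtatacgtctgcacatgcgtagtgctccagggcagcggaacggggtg

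The targeted gene followed the labels, with Pdpn signals of 60.2 to 135.5 on the (+/+) and 1.4 to 21.2 on the (-/-) arrays of E18.5, and of 39.7 to 214.9 and 8.6 to 30.0 on those of term. The surfactant gene Sftpc was at 5027.3 or above on all 16 arrays. Some arrays stood apart from the rest of their group. The summed signal of 14 cardiac muscle markers measured of 15 listed was 31603 on (+/+) replicate M against 1419 to 2613 on I to L, and the ventricular light chain Myl2 was 7514.4 on M and as low as 2.7 in the same group. The sum was also high on (-/-) replicates E (8770, other E18.5 arrays 1855 to 4314) and F (14603, other term arrays 1580 and 1814) and on term (+/+) replicate O (8149, others 1773 and 2061). No marker of the 14 was listed at 0 on any array. The summed signal of skeletal muscle markers was 4121 on term (+/+) replicate P, against 212 on N and 1148 on O. It was 204 to 672 on the arrays of the other groups. The part of muscle tissue in the values of P was not tested. The ratio of the 3′ to the 5′ GAPDH control probe sets, which rises when the labelled RNA is short, was 1.84, 2.55 and 2.63 on term replicates N, O and G, against 0.853, 1.11 and 0.827 on P, F and H and 0.962 to 1.72 at E18.5. It was computed here from 1 pair of control probe sets. Its values at E18.5 spread more widely than the figures the methods report for GAPDH, and the cause was not tested. The same ratio for β-actin was 2.72, 1.35 and 1.97 on N, O and G, and 1.30, 1.55 and 1.46 on P, F and H. Replicate I had a median signal of 61, against 35.8 to 47.8 on the other 15 arrays.

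Of the 71 members, 59 passed the filter on low signals in at least 1 comparison and 12 did not. The 12 were Ndufa1, Ndufa12, Ndufc2 and Ndufs4 of complex I, the assembly factor Ndufaf4, Sdha of complex II, Cox5a, Cox7a1 and Cox8a of complex IV, and Atp5g1, Atp5j2 and Atp5k of complex V. Their median signals over the 16 arrays ran from 7.7 (Ndufs4) to 41.1 (Atp5g1), although single arrays went higher, up to 119.6 for Ndufc2 on replicate I, and a low signal of a probe set gives no level of the gene. Some members named in the results are read by probe sets that can share probes with other transcripts. Those with the suffix _f read Ndufa3, Uqcrb, Uqcrc2, Cox4i1, Cox6a1, Cox6b2, Cox6c, Atp5g2 and Atp5md. Those with the suffix _s read Ndufa5 and Sdhb. Probe sets with the suffix _r, also set apart from the plain _at ones, read Cox6b1, Cox8b and Ndufb2. A further 10 probe sets, among them those for Cox7c, Ndufs5 and Ndufs6, name several genes or a pseudogene copy and were left out.

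The level of the members differed between arrays of a group. For each array the shift of the members was taken as the median, over the 59, of the log2 signal minus that member's mean over all 16 arrays. It was 0.22 ± 0.36 (SD, n = 5) in (+/+) and 0.07 ± 0.10 (n = 5) in (-/-) lungs at E18.5, and -0.26 ± 0.17 and -0.21 ± 0.19 (n = 3 each) at term. On (+/+) replicates I, J, K, L and M the shift was -0.23, 0.33, 0.06, 0.17 and 0.76. Replicate M held the highest signal of its group for 39 of the 59 members (66.1%, against 15.5% of all 6545 probe sets that were tested anywhere), and replicate I the lowest for 30 (50.8%, against 26.7%). On (-/-) replicates A to E the shift was 0.14, 0.03, 0.04, -0.07 and 0.18. At term it was -0.45, -0.13 and -0.19 on N, O and P and -0.003, -0.37 and -0.27 on F, G and H. Replicate F held the highest signal of its group for 33 members (55.9%, against 30% of all probe sets). In each of the 4 groups the array with the highest cardiac markers (M, E, O or F) also had the highest shift. The part of heart tissue in these shifts was not tested.

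**Figure D1:**
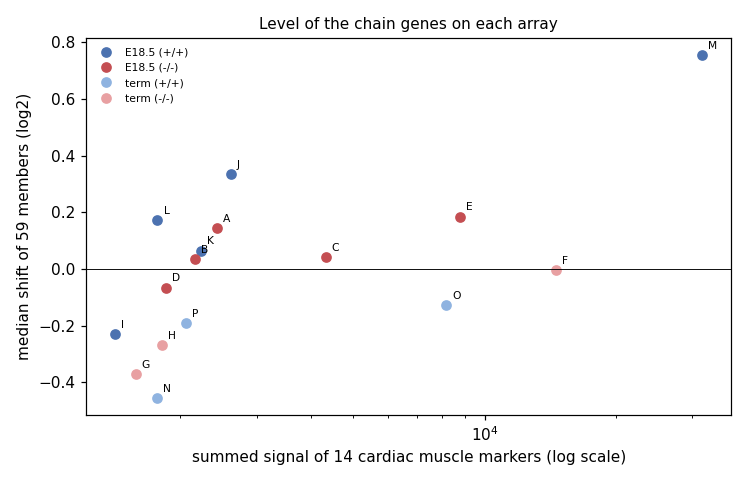
Median shift of the 59 tested members on each of the 16 arrays (y axis, log2, relative to each member's mean over all arrays) against the summed signal of 14 cardiac muscle markers (x axis, log scale), coloured by group and lettered by replicate. Replicate M lies at 31603 and 0.76, and replicates E, F and O, the next highest in markers, have the highest shift of their groups.

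The first question was whether loss of T1α changed the chain genes at E18.5. No member passed an adjusted p of 0.05 of the 59 tested, while 2 of all 5879 probe sets did (0.034%). At an unadjusted p under 0.05, 6 members were lower in (-/-) lungs (10.2% of members, against 2.62% of all probe sets) and 0 were higher (against 2.69%). The methods' t-test, on the linear signals, called 3 members lower before and 0 after Benjamini-Hochberg adjustment. The median difference of the members was -0.07 and that of all probe sets 0.04, and 38 members were lower and 21 higher. By complex, the medians were -0.13 for the 25 tested genes of complex I, -0.05 for 3 of complex II, -0.04 for 7 of complex III, 0.06 for 12 of complex IV and -0.19 for 11 of complex V. Marker lists of other cells and processes leaned one way as well. Of the tested proliferation genes 17 of 19 were lower in (-/-) lungs (median -0.42, 5 at an unadjusted p under 0.05), and their summed signal was 2514 to 4775 in (+/+) and 2298 to 2968 in (-/-) lungs. Of the type II cell and lung epithelium markers 8 of 9 were higher (median 0.56, 2 at that level), with sums of 19201 to 37517 in (+/+) and 26608 to 40076 in (-/-) lungs. Of the macrophage markers 6 of 7 were higher (median 0.34, 3 at that level), with sums of 1073 to 1343 and 1209 to 1672. None of these genes passed the adjusted threshold, and their part in the values of the members was not tested. In whole lung RNA, fewer cells of a type and less RNA per cell cannot be told apart.

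Ndufa5 (97201_s_at), an accessory subunit in the matrix arm of complex I, read 311.5, 526.8, 243.1, 344.2 and 681.0 on (+/+) replicates I to M and 203.9, 189.9, 183.5, 202.4 and 234.4 on (-/-) replicates A to E. Its groups did not overlap, which held for 1 member in the lower direction and for 0.476% of all probe sets. The difference was -0.91 with a standard error of 0.25 (adjusted p = 0.634, limma), and the exact permutation p was 0.00794, the smallest that 5 against 5 arrays allow. Atp5mpl (97512_at), a small membrane subunit of ATP synthase, read 244.2, 902.1, 332.0, 500.8 and 1000.2 in (+/+) and 255.0, 250.6, 127.7, 217.5 and 274.3 in (-/-) lungs. Replicate I lay within the (-/-) range and the other 4 (+/+) arrays above it. The difference was -1.19 ± 0.34 (SE, adjusted p = 0.792, limma). Atp5md, another small membrane subunit of ATP synthase, read 230.7, 1111.4, 700.9, 721.6 and 1290.8 against 355.3, 421.1, 285.8, 350.0 and 518.2. Again replicate I was the low one among the (+/+) arrays, and the difference was -0.87 ± 0.36 (adjusted p = 0.858, limma).

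Of complex III, 2 genes had an unadjusted p under 0.05. Uqcrb, the ubiquinone-binding protein of the complex, read 152.4, 666.5, 375.1, 558.7 and 514.6 on (+/+) and 319.4, 288.6, 148.3, 214.7 and 203.1 on (-/-) arrays, a difference of -0.80 ± 0.33, with replicate I alone within the (-/-) range. Uqcrc2, a core protein of the complex, read 304.6, 489.2, 402.5, 284.2 and 690.2 against 294.1, 266.9, 148.1, 362.2 and 283.9, a difference of -0.63 ± 0.27. Adjusted p was 0.858 for each (limma), and replicates I and L lay within the (-/-) range of Uqcrc2. For Ndufv3, at the NADH-binding end of complex I, replicate I was the highest array, with 231.5, 134.0, 170.7, 105.4 and 182.4 in (+/+) and 105.9, 81.3, 137.2, 83.4 and 147.4 in (-/-) lungs (-0.50 ± 0.23, adjusted p = 0.858, limma). In complex II the lowest p was that of the membrane anchor Sdhd (-0.35 ± 0.29, unadjusted p = 0.256, limma), and in complex IV that of Cox7a2 (-0.57 ± 0.36, unadjusted p = 0.135, limma). The assembly factor Ndufaf1 read 38.0 to 75.6 in (+/+) and 35.5 to 64.8 in (-/-) lungs.

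**Figure D2:**
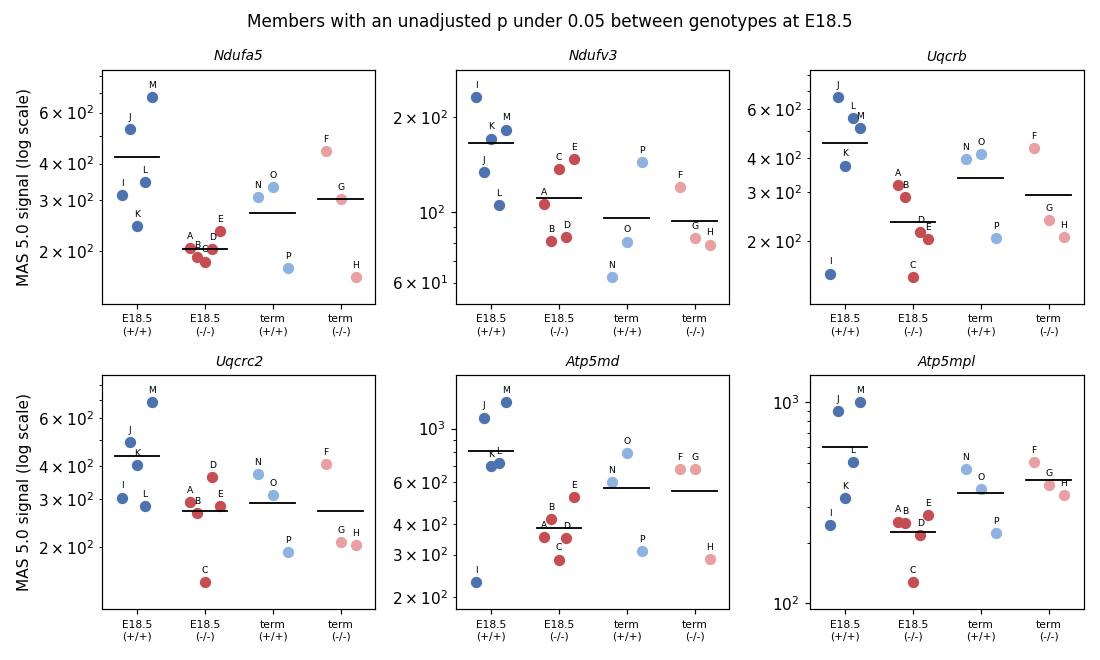
MAS 5.0 signal (y axis, log scale) of the 6 members with an unadjusted p under 0.05 between genotypes at E18.5, by group (x axis), 1 point per array lettered by replicate, with a bar at the mean. For Ndufa5 every (-/-) array at E18.5 lies below every (+/+) array, and for the other 5 members the genotypes overlap.

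The count and the median at E18.5 depended on single arrays of both genotypes. Without replicate M the median of the members was 0.002, with 2 members lower and 2 higher at an unadjusted p under 0.05, and without M and the (-/-) replicate E, the arrays with the highest cardiac markers, it was 0.009, with 2 lower and 0 higher. At an unadjusted p under 0.05, 3 members were lower without replicate J and 3 without the (-/-) replicate C, while 8 were lower without replicate I, where the median was -0.18. Shares of all probe sets in these runs are not given here, so the counts cannot be set against them.

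At term the same comparison gave no call among 57 members, as among all 5885 probe sets (0%). At an unadjusted p under 0.05, 0 members were lower (against 0.595% of probe sets) and 0 higher (against 0.085%). The median difference was 0.04 for the members and 0.01 for all probe sets, and without replicate F it was -0.06 for the members. The members closest to a difference were Cox6c, a small complex IV subunit (930.8, 1022.9 and 1049.8 on N to P and 850.8, 854.1 and 609.1 on F to H, -0.38 ± 0.24, SE), and Ndufv1, the subunit that binds NADH and FMN (0.50 ± 0.34). The groups of Cox6c did not overlap, which held for 1 of 57 members in the lower direction and for 1.94% of all probe sets. Unadjusted p was 0.146 and 0.175 (limma). The exact permutation p cannot go below 0.1 with 3 against 3 arrays, so that single members could not reach 0.05 by that test. The next lowest in their complexes were Uqcr11 (0.70 ± 0.59), Atp5e (0.36 ± 0.37) and Sdhb (0.23 ± 0.40).

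The genotype effect at term minus that at E18.5 was tested in 1 fit of all 16 arrays. No member of 59 and no probe set of 6458 passed the adjusted threshold (0%). At an unadjusted p under 0.05, 2 members were higher (3.39% of members, against 0.666% of probe sets) and 0 lower (against 0.805%). They were Atp5mpl (1.44 ± 0.53) and Ndufa5 (1.005 ± 0.45), each with an adjusted p of 0.9997 (limma). These values and those of the genotype at E18.5 rest on the same E18.5 arrays. At term Ndufa5 read 306.6, 331.2 and 174.2 in (+/+) and 442.1, 301.3 and 162.5 in (-/-) lungs, and the groups overlapped. The median over the members was 0.20, with 46 of 59 above 0, against -0.01 over all probe sets. Without the arrays of highest cardiac markers (E, F, M and O) that median was 0.03.

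From E18.5 to term, every member called in (+/+) lungs fell, as did all but 1 of those called in (-/-) lungs. In (+/+) lungs 11 of 59 members fell past the adjusted threshold (18.6%, against 7.99% of all 6145 probe sets) and 0 rose (against 10.6%). In (-/-) lungs 11 of 58 fell (19%, against 13% of 6193) and 1 rose (1.72%, against 13.8%). The median difference was -0.52 in (+/+) and -0.21 in (-/-) lungs, against -0.04 and -0.06 over all probe sets. In (+/+) lungs 48 members were lower and 11 higher, and in (-/-) lungs 39 were lower and 19 higher. Of the members called lower, 6 were called in both genotypes (54.5% of each list of 11), namely Atp5e, Cox6b2, Ndufb6, Ndufb7, Ndufb8 and Ndufv1, while over all probe sets 334 were called lower in both (68% of 491 and 41.6% of 803). These 2 comparisons share no array. The term and E18.5 groups did not overlap, in the lower direction, for 8 members in (+/+) lungs (against 11.6% of probe sets) and for 11 in (-/-) lungs (against 14.7%), and 1 member was wholly higher in (-/-) lungs (against 15.9%).

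Other measures differed between the times too. The summed signal of erythroid genes was 13002 to 30881 at E18.5 and 6782 to 11179 at term, and that of proliferation genes 2298 to 4775 and 1200 to 1743. The sources used here give no batch or scan date, so that a batch running with time cannot be told apart from it. Of the 59 members, 19 were lower on N, O and G, the term arrays with a high GAPDH ratio, than on all of P, F and H (32.2%, against 14.2% of all 6545 probe sets), and 3 were higher on all of them (5.08%, against 10.5%). Among the 11 called lower, 7 in each genotype were of these 19. The calls and this split use the same term signals, so that they are not independent. The matching share of all probe sets called lower was not computed. The part of RNA integrity in these differences was not tested.

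**Figure D3:**
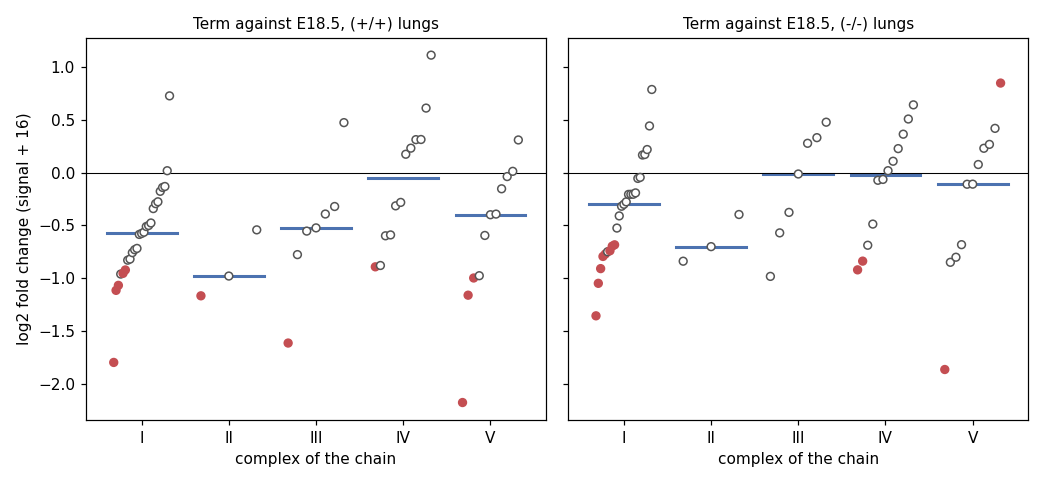
Log2 fold change of each tested member from E18.5 to term (y axis) in (+/+) lungs (left) and (-/-) lungs (right), by complex (x axis). Red points passed an adjusted p of 0.05, white points did not, and blue bars are medians, which lie at -0.58 and -0.30 for complex I and at -0.05 and -0.02 for complex IV.

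The complexes differed in their medians. They were -0.58 in (+/+) and -0.30 in (-/-) lungs for 25 genes of complex I, -0.98 and -0.70 for 3 of complex II, -0.52 and -0.01 for 7 of complex III, -0.05 and -0.02 for 12 of complex IV, and -0.40 and -0.11 for 11 of complex V. In complex IV as many members were higher as lower in each genotype (6 and 6). No test between complexes was made.

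In complex I, 5 of 25 tested members fell in (+/+) lungs (against 7.99% of all probe sets). In (-/-) lungs 8 of 25 fell (against 13%), and none rose in either genotype. The probe set used for Ndufb2 was at -0.58 and -0.30 and another at 0.57 and 0.49 in (+/+) and (-/-) lungs, none past the threshold. Ndufb8 (93581_at), an accessory subunit of the membrane arm, had the lowest p of the complex in both genotypes. On (+/+) arrays it read 523.8, 630.9, 619.7, 452.4 and 769.8 at E18.5, then 106.5, 145.8 and 252.7 at term, so that the mean fell 3.56-fold. On (-/-) arrays it read 654.3, 464.9, 444.3, 351.0 and 545.5 and 257.3, 90.5 and 237.6, a 2.52-fold lower mean at term. The groups did not overlap in either genotype, and the lowest arrays were N, O and G. The differences were -1.79 ± 0.30 and -1.35 ± 0.31 (SE, adjusted p = 0.00116 and 0.00785, limma). Ndufv1, which accepts the electrons of NADH, read 839.7, 1292.6, 1426.7, 1108.5 and 1507.0 at E18.5, then 358.0, 546.7 and 847.7 at term in (+/+) lungs. Replicates I and P overlapped there. In (-/-) lungs Ndufv1 read 1317.3, 1727.1, 1291.0, 1118.1 and 1219.2 and 801.8, 598.0 and 1004.3, without overlap. Its differences were -1.11 ± 0.32 and -0.74 ± 0.23 (adjusted p = 0.0239 and 0.0302, limma).

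Ndufb7, an accessory subunit on the intermembrane side, read 1054.0, 1227.6, 1090.2, 1168.7 and 1377.6 at E18.5, then 507.0, 547.2 and 781.5 at term in (+/+) lungs, and 1730.6, 1327.0, 1175.1, 843.0 and 1048.4 and 765.5, 512.2 and 801.7 in (-/-) lungs. Neither genotype showed overlap between the times (-0.95 ± 0.27 and -0.79 ± 0.26, adjusted p = 0.0226 and 0.0366, limma). Ndufb6, of the membrane arm, read 391.5, 665.7, 1170.1, 753.2 and 1034.6 and 273.5, 310.0 and 505.5 in (+/+) lungs, and 1249.5, 1154.7, 801.4, 489.2 and 846.7 and 509.8, 236.7 and 565.3 in (-/-) lungs. It overlapped between the times in both, and its term arrays N, O and G were at or under 310.0 and P, F and H at or above 505.5. Its differences were -1.07 ± 0.35 and -1.05 ± 0.33 (adjusted p = 0.0423 and 0.0345, limma).

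**Figure D4:**
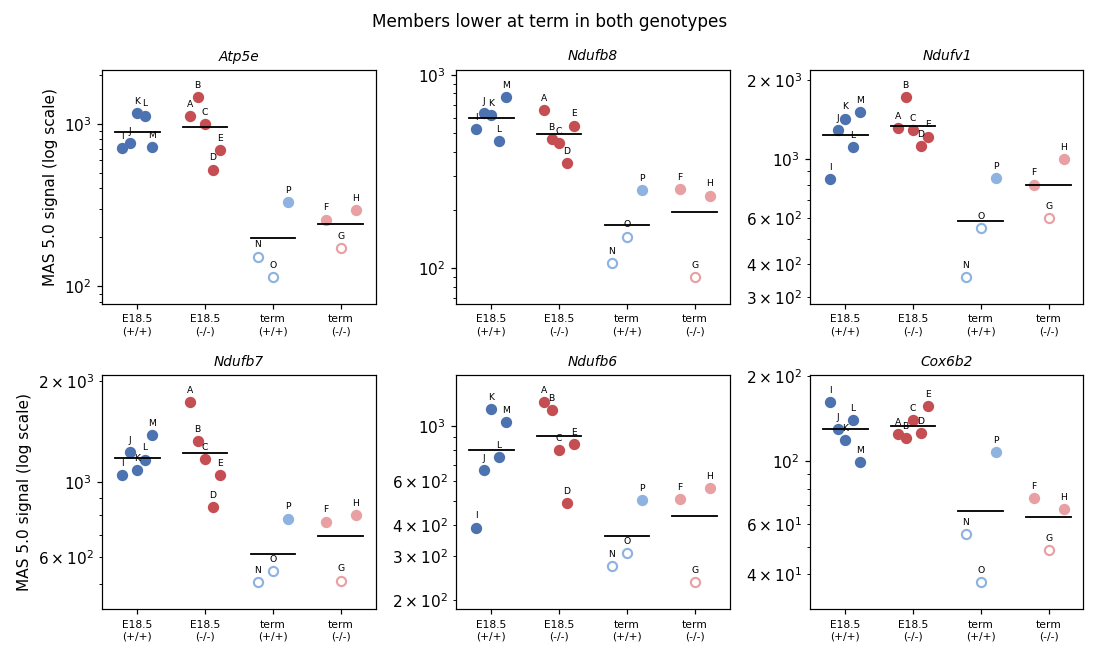
MAS 5.0 signal (y axis, log scale) of the 6 members called lower at term in both genotypes, by group (x axis), 1 point per array lettered by replicate, with a bar at the mean. Open points are N, O and G, the term arrays with a GAPDH ratio of 1.84 or more, which are the lowest of their groups in all 6 panels.

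The other complex I calls were made in 1 genotype. Ndufa3, of the membrane arm, fell in (+/+) lungs from 371.2, 664.5, 341.5, 574.9 and 781.2 to 282.9, 278.7 and 242.1 without overlap (-0.92 ± 0.30, adjusted p = 0.043, limma), and read 270.9, 297.5, 369.5, 570.9 and 662.3 and then 397.2, 317.7 and 220.8 in (-/-) lungs (adjusted p = 0.331). Ndufa7, in the matrix arm, fell in (-/-) lungs from 3456.9, 3315.5, 2480.8, 1843.0 and 2330.5 to 1349.8, 1487.1 and 1326.1 (-0.91 ± 0.24, adjusted p = 0.0148, limma). Its (+/+) values, 1640.1, 2673.6, 2914.3, 2711.4 and 2027.0 and 1421.8, 1371.5 and 1156.2, did not overlap either, with a difference of -0.83 ± 0.29 and an adjusted p of 0.0592 (limma). Unlike Ndufb8, it was not low on N, O and G. Ndufa8, on the intermembrane side, read 335.9, 327.0, 331.6, 299.5 and 294.8 at E18.5, then 236.7, 148.8 and 193.4 at term in (-/-) lungs without overlap. It fell there (-0.70 ± 0.20, adjusted p = 0.0214, limma) and was -0.73 ± 0.28 in (+/+) lungs (adjusted p = 0.0803), from 197.9, 390.0, 366.8, 289.8 and 394.7 to 162.9, 163.8 and 238.8. Ndufb3, of the membrane arm, read 178.4, 172.7, 290.5, 318.2 and 317.4 and then 161.0, 131.7 and 123.9 in (-/-) lungs, and Ndufc1, of the same arm, 191.8, 363.2, 212.1, 294.5 and 315.4 and then 146.5, 158.2 and 179.6. Both fell without overlap, with differences of -0.77 ± 0.25 and -0.68 ± 0.23 (adjusted p = 0.0346 and 0.0437, limma). In (+/+) lungs Ndufb3 read 225.4, 272.5, 184.5, 246.8 and 423.9 and then 179.2, 168.8 and 160.9, and Ndufc1 266.6, 231.0, 289.0, 229.6 and 543.3 and then 159.1, 229.3 and 129.5. Neither overlapped between the times there, with -0.58 ± 0.27 and -0.76 ± 0.31 (adjusted p = 0.149 and 0.0933), and the Ndufc1 signal of replicate M, 543.3, stood above all other arrays of its group. No difference between genotypes in the course over time passed the test for any of these. Ndufab1, the mitochondrial acyl carrier protein, had the highest value of the complex in both genotypes, at 0.72 ± 0.42 and 0.79 ± 0.33 (adjusted p = 0.23 and 0.0902, limma).

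In complex II all 3 tested members were lower at term in both genotypes and 1 call was made. Sdhd, a membrane anchor, read 472.4, 727.0, 358.4, 681.0 and 785.2 at E18.5, then 260.7, 130.0 and 451.1 at term in (+/+) lungs (-1.17 ± 0.36, adjusted p = 0.0359, limma). In (-/-) lungs it read 791.5, 260.6, 468.4, 338.8 and 580.2 and 317.6, 237.1 and 199.0 (-0.84 ± 0.32, adjusted p = 0.065). The times overlapped in both. Sdhb, the iron-sulfur subunit, read 493.4, 650.9, 493.2, 433.2 and 1119.6 and 226.5, 236.8 and 481.1 in (+/+) lungs and 603.4, 630.0, 514.0, 483.9 and 689.1 and 380.9, 203.0 and 549.6 in (-/-) lungs. Its highest array was M and its lowest were N, O and G, and its differences were -0.98 ± 0.34 and -0.70 ± 0.28 (adjusted p = 0.0563 and 0.0775, limma).

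In complex III the small subunit Uqcr11 fell in (+/+) lungs, from 186.3, 537.0, 660.9, 442.1 and 833.2 to 86.5, 88.9 and 377.2. Replicates N and O were at 86.5 and 88.9 and P at 377.2, so that P lay within the E18.5 range and N and O below it. The difference was -1.61 ± 0.47 (adjusted p = 0.0261, limma). In (-/-) lungs it read 799.5, 620.7, 512.6, 236.0 and 528.5 and 302.0, 105.5 and 454.0, with G below the E18.5 range (-0.98 ± 0.42, adjusted p = 0.0997). Uqcr10, a small subunit next to cytochrome c1, had the lowest p of the complex in (-/-) lungs, where it read 620.0, 510.0, 642.3, 441.5 and 651.7 and then 534.0, 357.0 and 278.9 (-0.57 ± 0.24, adjusted p = 0.0927, limma). Uqcrq was the highest in both genotypes, at 0.47 ± 0.37 and 0.48 ± 0.29 (adjusted p = 0.381 and 0.229).

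In complex IV the calls were on the 2 forms of subunit VIb. The probe set named Cox6b2, known as a testis form, read 162.2, 130.2, 118.7, 139.8 and 99.5 at E18.5, then 55.4, 37.5 and 108.0 at term in (+/+) lungs, and 125.0, 120.5, 140.3, 125.8 and 156.7 and 74.2, 48.6 and 68.0 in (-/-) lungs. Its differences were -0.89 ± 0.29 and -0.92 ± 0.19 (adjusted p = 0.0404 and 0.0051, limma). Its probes may also bind related transcripts, and another probe set for the gene gave -0.45 in (-/-) lungs (adjusted p = 0.316, limma), so the naming is uncertain. Cox6b1, the widely expressed form, fell in (-/-) lungs from 112.4, 139.5, 86.7, 142.2 and 72.7 to 41.8, 57.8 and 61.5 (-0.84 ± 0.24, adjusted p = 0.0207, limma). In (+/+) lungs it read 204.7, 86.1, 84.5, 89.9 and 75.0 and 40.3, 88.2 and 63.9, with replicate I far above the others (-0.59 ± 0.32, adjusted p = 0.198).

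In complex V, Atp5e (93596_i_at), the epsilon subunit of the central stalk, fell most of all members by log2 fold change in both genotypes. It read 704.5, 760.0, 1164.3, 1121.7 and 715.7 at E18.5, then 152.5, 114.7 and 329.0 at term in (+/+) lungs, with means of 893 ± 229 and 199 ± 114 (SD), a 4.49-fold difference. In (-/-) lungs it read 1119.5, 1465.1, 999.2, 522.5 and 685.0 and 257.6, 172.8 and 293.8, with means of 958 ± 371 and 241 ± 62.1, a 3.97-fold difference. No term array reached the lowest E18.5 array of its genotype. The differences were -2.17 ± 0.33 and -1.86 ± 0.31 (SE, adjusted p = 0.000686 and 0.00169, limma), and the exact permutation p was 0.0179 in each, the smallest that 5 against 3 arrays allow. The suffix of its probe set marks one with fewer unique probes than usual. Atp5o, the protein of the peripheral stalk that confers oligomycin sensitivity, fell in (+/+) lungs from 426.0, 478.3, 277.1, 421.5 and 1111.1 to 144.4, 205.9 and 301.2 (-1.16 ± 0.37, adjusted p = 0.0406, limma). Replicate M was its highest array, and P overlapped K. In (-/-) lungs its difference was -0.68 ± 0.28 (adjusted p = 0.0871), from 291.3, 225.9, 474.8, 345.2 and 482.2 to 306.4, 190.6 and 162.3. Atp5pb, the b subunit of the same stalk, fell in (+/+) lungs from 134.5, 98.3, 83.3, 90.0 and 63.1 to 39.6, 34.6 and 39.5, near the lower end of signals tested (-0.997 ± 0.26, adjusted p = 0.0171, limma), and did not overlap in (-/-) lungs either, at 79.9, 185.1, 95.1, 78.3 and 58.8 and then 58.0, 41.8 and 40.7 (-0.80 ± 0.28, adjusted p = 0.0534).

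Atp5mpl was the 1 member that rose, in the (-/-) comparison. It went from 255.0, 250.6, 127.7, 217.5 and 274.3 at E18.5 to 500.8, 385.0 and 343.7 at term in (-/-) lungs without overlap (0.85 ± 0.25, adjusted p = 0.0261, limma). In (+/+) lungs its term values were 464.1, 370.5 and 223.1, a difference of -0.59 ± 0.41 (adjusted p = 0.327). The difference between the genotypes, given above, did not pass the adjusted threshold. The gene of subunit alpha, Atp5a1, was 0.31 ± 0.37 and 0.23 ± 0.21 (adjusted p = 0.58 and 0.432). The c subunit gene Atp5g2 was 173.4 to 221.0 in (+/+) and 94.5 to 228.3 in (-/-) lungs of E18.5, and 147.6 to 203.8 and 130.3 to 173.2 in those of term, with no difference past the threshold. Atp5g1, which codes for the same subunit, did not pass the filter and was not tested.

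For the runs with arrays left out, the share of all probe sets called is not given here. The count of calls over time depended on single arrays. In (+/+) lungs it was 2 without N or O (Atp5e and Ndufb8 each time), 4 without J, 6 without L or M and 12 to 15 without I, K or P, and in (-/-) lungs 4 without F, 6 without G and 8 to 13 without the others, and Atp5e and Ndufb8 were called under each of these. Without the arrays of highest cardiac markers, Atp5e and Ndufb8 were the 2 members called lower in (+/+) lungs (and Cox6a2 was called higher), and those 2 with Cox6b2 and Ndufa8 in (-/-) lungs. Without N and O no member was called in (+/+) lungs, where P is then the 1 term array and is assumed to vary like the others, and Atp5e was at -1.36 (adjusted p = 0.210) and Ndufb8 at -1.17 (adjusted p = 0.249, limma), with 9 members lower at an unadjusted p under 0.05. P also had the highest skeletal muscle markers of all arrays, so that leaving out N and O changes more than the GAPDH ratio. Without G, Atp5e was at -1.65 (adjusted p = 0.0105) and Ndufb8 at -0.92 (adjusted p = 0.0324, limma) in (-/-) lungs.

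Centering each array on its median moved the median of all probe sets by 0.14 in (+/+) and by 0.11 in (-/-) lungs over time. Relative to that median, the members stood at -0.48 in (+/+) and -0.14 in (-/-) lungs. Centering cannot change these values, because it moves every probe set of an array by the same amount. With centering, 3 members were called lower in (+/+) lungs (Atp5e, Atp5pb and Ndufb8) and 5 in (-/-) lungs.

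The paired tissue forms of complex IV subunits gave no call between genotypes, but they separated single arrays. Cox6a2, the heart and muscle form of subunit VIa, read 32.3, 101.3, 106.6, 21.8 and 1381.3 on the (+/+) and 143.4, 119.9, 271.7, 42.7 and 534.2 on the (-/-) arrays of E18.5, and 144.0, 418.7 and 299.3 and 793.7, 96.0 and 236.7 on those of term. In every group its highest array was the one with the highest cardiac markers (M, E, O and F). Cox8b, the heart and muscle form of subunit VIII, which brown fat also uses, was 94.5, 47.5, 12.3, 77.7 and 312.2 on (+/+) arrays at E18.5 and 83.9 to 115.9 on (-/-) arrays, and 49.1 to 180.6 and 52.4 to 138.6 at term. Cox7a1, the heart and muscle form of subunit VIIa, was 75.9 on M and at most 26.2 on the other 15 arrays, and was not tested. Ucp1, the defining gene of brown fat, was at most 78.9 on any array.

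Among their widely expressed partners, M was the highest of its group for Cox6a1 and Cox7a2, but close to the next array. Cox6a1, the form of subunit VIa in most tissues, read 1435.3, 2428.9, 3065.2, 2594.0 and 3119.0 on the (+/+) and 3093.4, 3442.6, 2010.0, 1726.1 and 2360.6 on the (-/-) arrays of E18.5, and 1197.4, 1976.6 and 970.5 and 1290.7, 2170.0 and 1233.7 on those of term. Its differences over time were -0.88 ± 0.34 and -0.69 ± 0.28 (adjusted p = 0.0798 and 0.0816, limma). Cox7a2, the widely expressed form of subunit VIIa, read 352.6, 1752.7, 768.3, 1186.3 and 1840.9 on (+/+) arrays and 735.2, 574.8, 512.8, 861.6 and 747.4 on (-/-) arrays at E18.5, with J and M high and I low, and 758.4, 714.8 and 535.9 and 864.7, 687.8 and 535.5 at term. Cox7a2l, which takes part in joining complexes III and IV, was 537.0 to 1202.8 in (+/+) and 507.5 to 1417.0 in (-/-) lungs of E18.5, and 491.4 to 956.8 and 568.4 to 1339.9 in those of term. Cox4i1 was 41.9 to 73.2, 39.3 to 96.3, 66.3 to 78.9 and 63.6 to 117.3 in the same order of groups, and Cox8a stayed at or under 45.8 on all arrays. By the probe sets used, none of Cox6a1, Cox6a2, Cox7a2, Cox7a2l, Cox4i1 and Cox8b passed the adjusted threshold in any comparison. Another probe set for Cox4i1 fell over time in (-/-) lungs (-0.71, adjusted p = 0.0402, limma). The one used was at 0.51 there (adjusted p = 0.169, limma), so the direction of Cox4i1 is uncertain.

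**Figure D5:**
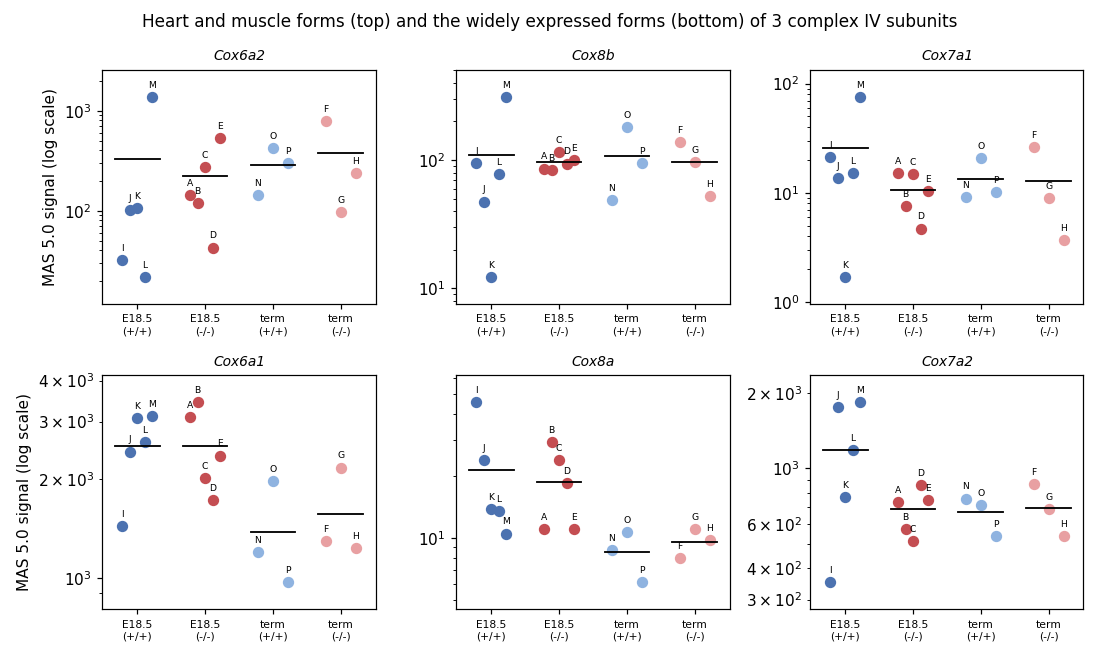
MAS 5.0 signal (y axis, log scale) of the heart and muscle forms (top row) and widely expressed forms (bottom row) of complex IV subunits VIa, VIII and VIIa, by group (x axis), 1 point per array lettered by replicate, with a bar at the mean. Replicate M is the highest array for Cox6a2 (1381.3), Cox8b (312.2) and Cox7a1 (75.9). Among the 5 E18.5 (+/+) arrays it is also the highest for Cox6a1 (3119.0, next 3065.2) and Cox7a2 (1840.9, next 1752.7). For Cox8a, which was too low to test, it is the lowest of them (10.5).

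Other genes of mitochondria were taken from lists. Between genotypes no gene of these lists passed the adjusted threshold at either time. At E18.5 and an unadjusted p under 0.05 (limma), 2.62% of all probe sets were lower in (-/-) lungs and 2.69% higher. At that level, 3 of 20 import proteins and chaperones were lower in (-/-) lungs. So were 1 of 14 electron carriers and assembly factors, 1 of 8 factors of biogenesis and 2 of 46 mitochondrial ribosome subunits. In the last list 1 gene was higher. The remaining lists had 0 at that level, as had all of them at term. Among these, 17 of 19 enzymes of the citric acid cycle and pyruvate dehydrogenase were lower in (-/-) lungs at E18.5 and 2 higher (median -0.17). Over time, of 14 tested electron carriers and assembly factors of the chain, 1 fell in (+/+) lungs, and 4 fell and 1 rose in (-/-) lungs. The beta subunit of electron transfer flavoprotein, Etfb, fell in both (-1.26 and -0.88, adjusted p = 0.0287 and 0.0330, limma), while Cox17, a copper chaperone for complex IV, rose in (-/-) lungs (1.13, adjusted p = 0.00850) and was 0.88 in (+/+) lungs (adjusted p = 0.0505). Of the mitochondrial ribosome's subunits, 4 of 47 fell and 1 rose in (+/+) lungs, and 12 of 47 fell and 1 rose in (-/-) lungs. Mrpl27 fell in both (-0.79 and -0.81, adjusted p = 0.0450 and 0.00980). Of the enzymes of the citric acid cycle and pyruvate dehydrogenase, 0 of 19 were called in (+/+) lungs, and 2 rose and 1 fell in (-/-) lungs.

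Import proteins and chaperones had 4 lower of 21 in (+/+) lungs, and 3 lower and 1 higher of 20 in (-/-) lungs. The channel gene Vdac2 rose in both genotypes (0.97 and 1.11, adjusted p = 0.0185 and 0.00162, limma), where 2 of 13 carriers and pores rose in (+/+) lungs, and 1 of 14 rose and 1 fell in (-/-) lungs. Among factors of mitochondrial biogenesis, 2 rose and 1 fell of 10 tested in (+/+) lungs, and 2 rose and 1 fell of 8 in (-/-) lungs. Gabpa, the DNA-binding subunit of GABP, and Yy1 rose in (+/+) lungs (1.09 and 1.06, adjusted p = 0.0111 and 0.0212, limma) and were 0.67 and 0.50 in (-/-) lungs (adjusted p = 0.112 and 0.0733). Esrra, an estrogen-related receptor that acts on such genes, fell in both (-0.87 and -0.73, adjusted p = 0.0301 and 0.0493). The background shares of the 2 comparisons over time, given above, hold for these counts as well.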

How the data were processed

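RNA of 16 separate lungs was hybridised to 1 U74Av2 array each. The deposited values are linear intensities, the weighted mean signal per probe set that the authors derived in Microarray Suite 5.0 and scaled on each array. Detection calls were not used here. Symbols came from the platform annotation. Signals were tested as log2(signal + 16) with limma 3.58.1 (R 4.3.3, empirical Bayes with an intensity trend) over all probe sets without array controls, with Benjamini-Hochberg adjustment and a threshold of 0.05. A probe set was tested where its median signal in at least 1 group of the comparison passed a level set from the share of probe sets the methods called present (47.7 to 53.4). The interaction used all 16 arrays and the other comparisons only their own. Single members also had an exact two-sided permutation test. The labels give no litter or batch, so p-values measure the spread between these lungs, and the small number of arrays limits the precision.

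Members and gene lists were chosen with earlier results of these data known. The rule for named members took those called, those of lowest p per complex and pairs of tissue forms, with values in every array for those called and values or ranges for the rest. Outside that rule, Atp5md, Uqcrc2 and Ndufv3 were named for an unadjusted p under 0.05 at E18.5. Ndufab1, Uqcrq, Ndufb2 and Atp5a1 were also named outside it, after the values were seen. Genes of the pathway lists were named from the 3 of lowest p in a comparison. Alternatives were other scalings, pseudocounts, filters, variance models and array weights, the methods' t-test, averaging of probe sets and leaving out arrays. Leaving out arrays by cardiac markers or GAPDH ratio, and these as covariates, were added after seeing the data. Scripts were tested on simulated data. Tables and plots used Python 3.11.15, numpy 2.4.6, pandas 2.3.3 and matplotlib 3.10.9.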

Additional observations from a re-analysis of the deposited data

Results flagged for a closer look

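In 2 of 68 groups of arrays checked on the log2(signal + 16) scale, 1 array lay far from the rest by Dixon's criterion, which chance alone meets in about 1 in 20 groups. The Ndufc1 signal of E18.5 (+/+) replicate M was 543.3, against 229.6 to 289.0 on the other 4 arrays. On that log2 scale the gap to its neighbour was 0.737 of the whole range, where 0.71 is the critical value for 5 arrays. The Cox6b1 signal of E18.5 (+/+) replicate I was 204.7, against 75.0 to 89.9 on the others, a gap of 0.829 of the range on the log2 scale.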

How the results depend on the processing

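Neither genotype comparison, nor the difference between them, gave a call among the members under any alternative run (21 to 29 for each), and the median of the members moved by less than the spread between arrays in all 5 comparisons. The counts over time moved. In (+/+) lungs, 11 members were called, against 3 with centering on array medians, 6 with no filter, 17 with all arrays in 1 fit, 20 with array quality weights and 2 by the methods' t-test. With alternatives chosen after seeing the data, the count was 3 without the arrays of highest cardiac markers, 0 without the term arrays of highest GAPDH ratio, 4 with that ratio and 12 with the cardiac markers as a covariate. In (-/-) lungs, 12 were called, against 6 with centering, 7 with no filter and 2 by the methods' t-test, 4 and 6 without the same arrays, 15 and 16 with the same covariates, and 17 with array quality weights. After adjustment the t-test called Ndufb7 and Ndufb8 in (+/+) and Cox6b2 and Ndufa8 in (-/-) lungs, and Atp5e in neither. Leaving out 1 array at a time gave 2 to 15 in (+/+) and 4 to 13 in (-/-) lungs. The share of all probe sets called under each alternative is not given here. These counts therefore show how the calls moved, and cannot be set against a background. The cause of these moves was not tested. No called member changed direction. The small medians of the genotype comparisons, which have no test, crossed 0, from -0.07 to 0.002 without M and 0.009 without M and E at E18.5, and from 0.04 to -0.06 without F and -0.008 without F and O at term. No paired analysis was possible because the replicate letters are unique to each array. Signals near background limit the 12 members that no comparison tested.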
